A study of Arabidopsis thaliana with 9 samples.

Results

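Of 33602 Arabidopsis thaliana genes, 105 set replicate 3 of the mutant tt19-8 apart from replicates 1 and 2 of the same group. They were chosen by their FPKM, a level given as fragments per kilobase of gene and per size of the library: a mean of at least 10 FPKM over the 3 tt19-8 libraries, with replicates 1 and 2 both at least 2.5 times replicate 3, or both at most 0.4 times replicate 3. The measured values themselves chose these genes, so the split inside tt19-8 is given as a description with no test. Of the 9841 genes with a mean of at least 10 FPKM in tt19-8, 40 (0.406%) were lower in replicate 3 and 65 (0.661%) were higher.

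RNA was sequenced from seedlings 9 days old, grown on 1/2 MS medium with 2% sucrose, in 3 groups of 3 libraries. OE2 and OE1 are lines that overexpress CsGSTF1, a glutathione S-transferase gene of tea, and tt19-8 is a knock-out of TT19, the Arabidopsis glutathione S-transferase that anthocyanin needs to reach the vacuole. The title of the series places the CsGSTF1 lines against the tt19-8 mutant, the sample labels themselves name no other allele in them, and the promoter of the transgene is not given in the sources used here. Whether replicates are separate cultures is not stated, so p-values measure only the spread between these libraries, which may be technical.

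Among the 105 genes, 36 of the 65 higher ones and 24 of the 40 lower ones belong to none of the kinds grouped here. The others fall into a few kinds with well known roles. Extensins, proline-rich proteins and arabinogalactan proteins are glycoproteins of the plant cell wall: hydroxylated prolines in repeated motifs carry sugars, and extensins are cross-linked into a network that stiffens the wall. Dehydrins and other late embryogenesis abundant proteins are made in ripening seeds and in tissue short of water, largely under abscisic acid, which acts through promoter elements with an ACGT core. Ribosomal RNA makes up most of the RNA of a cell, and libraries made for messenger RNA hold a small and varying part of it.

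No other library stood apart from its group to this degree. With the same rule applied to each of the other 8 libraries, 3 to 35 genes set the library apart, and OE1 replicate 2 had the highest of these counts. Across the 9841 genes, the Pearson correlation of log2(FPKM + 1) between tt19-8 replicate 3 and the OE1 libraries was 0.975 to 0.979, that between replicate 3 and the other tt19-8 libraries was 0.940 to 0.947, and that between replicates 1 and 2 was 0.982. TT19 checked no library against its label, since it read 0.864, 0.674 and 0.876 FPKM in OE2, 0, 0.0769 and 0.0712 FPKM in OE1, 0 FPKM in tt19-8 replicate 3, and 0.113 and 0.0399 FPKM in tt19-8 replicates 1 and 2. All 9 libraries thus held less than 1 FPKM of the knocked-out gene. The steps between low values put the depth at 47.7 to 54.1 M fragments in OE1, 57.0 M in tt19-8 replicate 3, and 51.0 M and 47.9 M in replicates 1 and 2; in OE2 no steps were found, which leaves depth unknown there. A gene of 1 kb at 10 FPKM then rests on 477 to 570 fragments in OE1 and tt19-8. Shorter genes rest on fewer, as do values below 10 FPKM, such as 2.74 FPKM for AT1G68250 in tt19-8 replicate 3. The part of counting error in the split was not tested.

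Where OE1 lies was expressed as a position on the log2 scale, from 0 at the mean of tt19-8 replicates 1 and 2 to 1 at replicate 3. The OE1 mean was nearer to replicate 3 for 28 of the 40 lower genes (70.0%), with a median position of 0.68, and for 59 of the 65 higher genes (90.8%), with a median of 0.87. Genes outside the rule lay on the same side: OE1 was nearer to replicate 3 for 84.9% of the 5350 other genes at this level that were lower in replicate 3 than in both other libraries (median position 1.02), and for 68.6% of the 2514 that were higher (median 0.81). The position and the split share the tt19-8 libraries, so these shares are descriptions. The share of lower genes was 56.5% (35 of 62) with no minimum and 1 FPKM added and 59.1% (13 of 22) with median-ratio scaling.

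All 3 OE1 libraries were below both replicates 1 and 2 for 33 of the 40 lower genes, against 42.7% of all 9841 genes. All 3 were above both for 62 of the 65 higher genes, against 13.2% of all genes. The rule used replicates 1 and 2, and nothing is read from these counts. Every OE1 library was nearer to replicate 3 in 16 of 40 lower genes and in 46 of 65 higher ones. Among the other genes at this level it was so in 3152 of the 5350 lower and in 798 of the 2514 higher ones. In OE1 replicates 1, 2 and 3 the number of lower genes nearer to tt19-8 replicate 3 was 33, 18 and 29, and that of higher genes 58, 58 and 53, so the lower genes were the more uneven over the OE1 libraries. For the 5350 other lower genes it was 4197, 4645 and 3887, and for the 2514 other higher genes 1761, 1253 and 1728. OE1 replicate 2 thus had the fewest of the chosen lower genes but the most of the other lower genes.

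**Figure D1:**
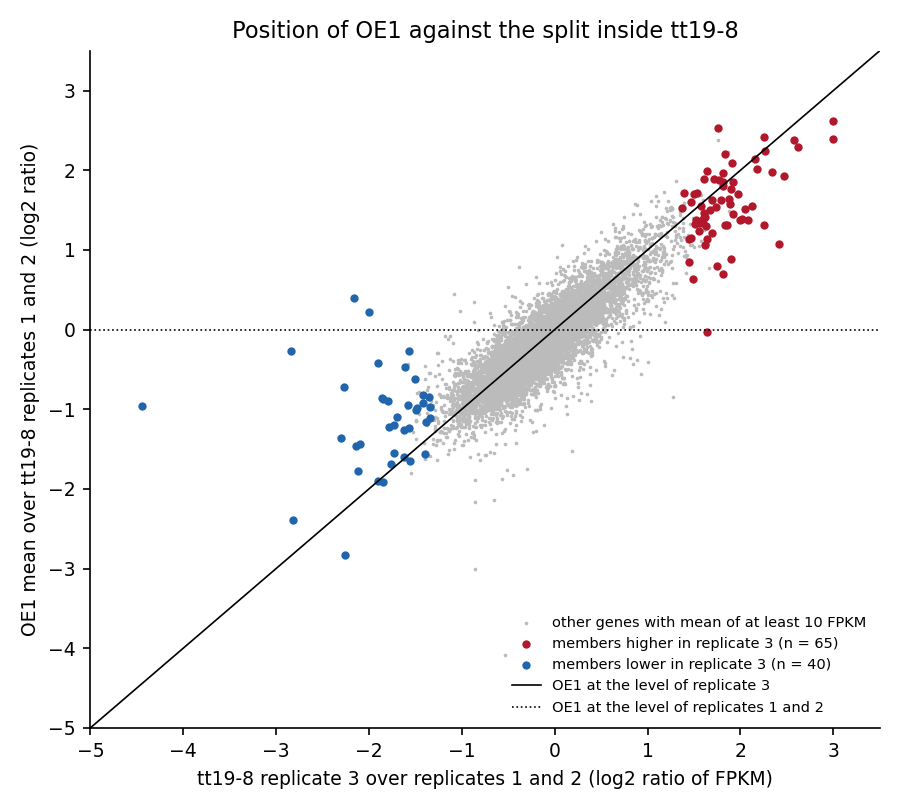
Each point is a gene with a mean of at least 10 FPKM in tt19-8; the x axis is the log2 ratio of tt19-8 replicate 3 to replicates 1 and 2 (their geometric mean) and the y axis the log2 ratio of the OE1 mean to the same replicates. Most of the 65 higher genes lie near the diagonal, where OE1 equals replicate 3, and several of the 40 lower genes lie near the dotted line, where OE1 equals replicates 1 and 2; both axes share replicates 1 and 2.

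The higher genes took a large part of the library. Together the 65 genes held 4.23%, 5.90% and 3.41% of all FPKM in OE2, 4.89%, 6.76% and 3.94% in OE1, 6.43% in tt19-8 replicate 3, and 2.11% and 1.65% in replicates 1 and 2. Replicate 3 was thus inside the range of OE1 and above its own group. The fold between replicate 3 and the geometric mean of replicates 1 and 2 had a median of 3.47 and ran between 2.59 and 7.98.

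Cell wall glycoproteins made up 20 of the 65 higher genes and none of the 40 lower ones. By product names, a grouping made after the values were seen, 135 genes named in this way reached 10 FPKM in tt19-8, and 14.8% of them were higher by the rule, beside 0.661% of all genes. Such a name does not by itself place a protein in the wall: the clock gene ELF3 is also annotated as a hydroxyproline-rich glycoprotein. Replicate 3 was above both other libraries for 101 of the 135 (74.8%), beside 26.2% of all genes at this level, and their median log2 ratio of replicate 3 to replicates 1 and 2 was 0.66, beside -0.18 for all genes. The 20 chosen genes are among the 101, where the rule itself put replicate 3 above both, and the median includes them. Values without the 20 were not computed, so the share and the median are descriptions only. Most of the 20 are rich in CCN codons, the codons for proline: 18 lay in the decile of genes with the most, while AGP12, with 6.56%, did not. Product names such as proline-rich and extensin formed the grouping, so this richness follows in part from the names. The 150-nt stretch with the most CCN codons is shown for an extensin, an arabinogalactan protein and a proline-rich protein, 1 of each kind of cell wall gene, and for a ribosomal protein gene that shares the split without the repeats. The sequences were read from the RefSeq genome TAIR10.1, 5′ to 3′, with CCN codons in capitals.
EXT4: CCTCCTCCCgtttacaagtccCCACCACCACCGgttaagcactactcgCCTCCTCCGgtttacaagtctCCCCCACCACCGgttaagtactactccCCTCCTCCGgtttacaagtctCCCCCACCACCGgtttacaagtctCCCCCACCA
AGP9: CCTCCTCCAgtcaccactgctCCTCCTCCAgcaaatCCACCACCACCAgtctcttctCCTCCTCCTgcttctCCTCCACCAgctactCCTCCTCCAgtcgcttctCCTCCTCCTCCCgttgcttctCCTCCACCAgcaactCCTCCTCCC
PRP3: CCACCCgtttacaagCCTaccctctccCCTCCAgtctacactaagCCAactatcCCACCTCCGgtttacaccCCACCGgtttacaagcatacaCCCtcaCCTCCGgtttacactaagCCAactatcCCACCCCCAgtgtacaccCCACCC
AT3G06700: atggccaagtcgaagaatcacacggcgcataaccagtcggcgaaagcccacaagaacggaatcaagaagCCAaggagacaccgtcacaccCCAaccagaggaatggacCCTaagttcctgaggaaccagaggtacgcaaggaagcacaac
The stretches are coding bases 163 to 312 of EXT4, 172 to 321 of AGP9, 145 to 294 of PRP3 and 1 to 150 of AT3G06700, and hold 24, 29, 20 and 3 CCN codons.

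EXT4 (AT1G76930, chromosome 1, 28895301 to 28897120, reverse strand, TAIR10.1), an extensin, had the highest mean FPKM in tt19-8 of all 105 genes. It measured 7346, 12297 and 7333 FPKM in OE2, 10680, 17904 and 10649 FPKM in OE1, 18450 FPKM in tt19-8 replicate 3, and 5185 and 4986 FPKM in replicates 1 and 2. Replicate 3 was above every other library of the series, and every OE library was above replicates 1 and 2. AT2G43150, an extensin-like proline-rich protein with 42.3% CCN codons, measured 6839, 13260 and 5416 FPKM in OE2, 8712, 16923 and 6902 FPKM in OE1, 12613 FPKM in replicate 3, and 4913 and 3396 FPKM in replicates 1 and 2. Here OE1 replicate 2, not tt19-8 replicate 3, was the highest library.

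EXT3, the extensin that builds the first wall scaffold of the embryo, lay just outside the rule, with tt19-8 replicate 3 at 2.48 times the nearer of replicates 1 and 2. It measured 27114, 41334 and 19972 FPKM in OE2, 41370, 63322 and 30280 FPKM in OE1, 54928 FPKM in replicate 3, and 22181 and 14671 FPKM in replicates 1 and 2. Of the 14 genes on a list of extensins and proline-rich proteins, all were above both other tt19-8 libraries in replicate 3, with a median log2 ratio of 1.60 (range 1.16 to 1.90), and 4 passed the rule: EXT4, PRP2, PRP3 and AT4G08400. In all 14, OE1 replicate 2 was the highest OE1 library, as it was for 27.3% of all genes at this level. The order of the OE1 libraries, which the rule did not use, was thus shared by the whole list. Of 18 gene lists, root markers also held 1 higher gene (PRP3), while cold and abscisic acid genes held 2 lower genes and seed storage genes 1. The other 14 held none of the 105 genes: aquaporins, photosynthesis, the clock, rapid stress, jasmonate, salicylic acid, phosphate, flavonoids, heat shock, nitrogen, dark-inducible genes, aliphatic and indole glucosinolates, and auxin and shade. Their absence says little: heat shock and auxin and shade had no gene at this level, salicylic acid had 1, and the 14 lists had 114 in all, where the rule chose 1.07% of all genes.

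PRP3 (AT3G62680, chromosome 3, 23182722 to 23184042, forward strand), a proline-rich protein of root hair walls, measured 227, 424 and 147 FPKM in OE2, 284, 533 and 184 FPKM in OE1, 612 FPKM in tt19-8 replicate 3, and 212 and 127 FPKM in replicates 1 and 2. OE1 overlapped replicates 1 and 2 in this gene, and its position was 0.47. PRP2, of the same family, measured 176, 227 and 174 FPKM in OE2, 228, 295 and 226 FPKM in OE1, 354 FPKM in replicate 3, and 104 and 94.7 FPKM in replicates 1 and 2. AT4G08400 measured 38.7, 64.3 and 25.9 FPKM in OE2, 40.8, 67.9 and 27.3 FPKM in OE1, 52.5 FPKM in replicate 3, and 19.83 and 10.2 FPKM in replicates 1 and 2. In PRP2 and AT4G08400 no OE1 library overlapped replicates 1 and 2.

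Arabinogalactan proteins, which sit at the cell surface and in the wall, followed. AGP9 (AT2G14890, chromosome 2, 6399405 to 6401149, forward strand) measured 1495, 1480 and 1133 FPKM in OE2, 1885, 1866 and 1427 FPKM in OE1, 1925 FPKM in tt19-8 replicate 3, and 677 and 454 FPKM in replicates 1 and 2. AGP31 measured 2087, 3790 and 2147 FPKM in OE2, 2987, 5438 and 3078 FPKM in OE1, 7135 FPKM in replicate 3, and 1989 and 2261 FPKM in replicates 1 and 2. OE1 was thus close to replicate 3 in AGP9 (position 0.91) and in the middle in AGP31 (0.46). AGP4 measured 1351, 1466 and 1004 FPKM in OE2, 1510, 1638 and 1121 FPKM in OE1, 1667 FPKM in replicate 3, and 634 and 324 FPKM in replicates 1 and 2. AGP19 measured 697, 823 and 509 FPKM in OE2, 818, 966 and 597 FPKM in OE1, 1131 FPKM in replicate 3, and 273 and 152 FPKM in replicates 1 and 2. Of the gene bodies of AGP19 and AGP4, 61.7% and 60.1% overlap a gene on the other strand, and as strand use in the counting is not stated, reads of the partners cannot be told apart. AGP12 ran another way over the OE libraries: it measured 59.2, 15.2 and 41.8 FPKM in OE2, 60.1, 14.6 and 41.7 FPKM in OE1, 42.8 FPKM in replicate 3, and 7.73 and 9.16 FPKM in replicates 1 and 2, with OE1 replicate 2 the lowest OE1 library.

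AT4G38080, a hydroxyproline-rich glycoprotein, had the largest ratio of the family (2.62 on the log2 scale), with 1040, 1342 and 721 FPKM in OE2, 1434, 1854 and 989 FPKM in OE1, 1731 FPKM in tt19-8 replicate 3, and 372 and 213 FPKM in replicates 1 and 2. Over the 20 cell wall genes the OE1 position had a median of 0.84 and ran between 0.43 (AT3G16670) and 1.21 (AT5G12880). OE1 was nearer to replicate 3 in 17 of 20, and OE1 replicate 2 was the highest OE1 library in 15 of 20.

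**Figure D2:**
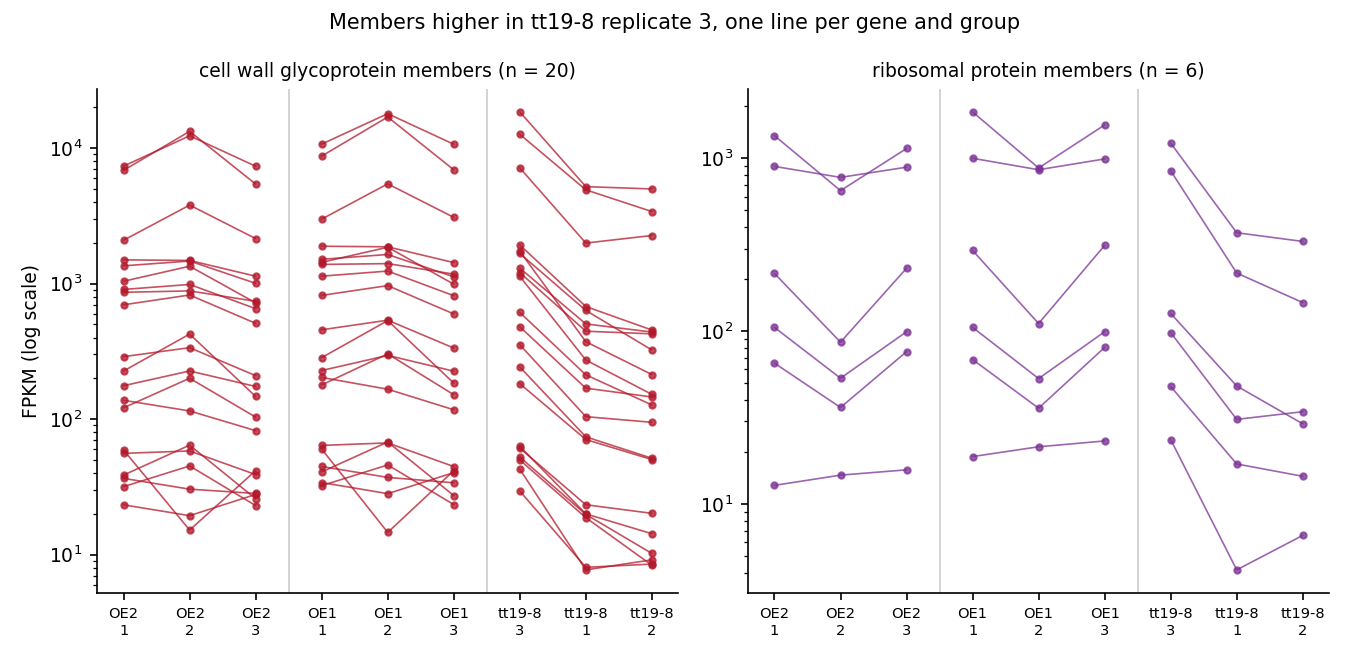
FPKM on a log axis in every library, with a line for each gene within each group, for the 20 cell wall glycoprotein genes and the 6 ribosomal protein genes that were higher in tt19-8 replicate 3. In both panels replicate 3 lies near the OE libraries and replicates 1 and 2 lie below it; across the OE1 libraries replicate 2 is the highest in 15 of 20 cell wall genes and the lowest in 5 of 6 ribosomal protein genes.

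The summed level of root markers other than PRP3, itself one of the 65 higher genes, did not set tt19-8 replicate 3 apart. These 9 markers summed to 91.1, 121 and 93.9 FPKM in OE2, 109, 153 and 117 FPKM in OE1, 181 FPKM in tt19-8 replicate 3, and 178 and 188 FPKM in replicates 1 and 2, so that replicate 3 lay between replicates 1 and 2. With PRP3 the 10 markers summed to 318, 545 and 241 FPKM in OE2, 393, 687 and 301 FPKM in OE1, 794 FPKM in tt19-8 replicate 3, and 391 and 315 FPKM in replicates 1 and 2, with none at 0 in any library. Of the 5 that reached 10 FPKM in tt19-8, 2 were above both other libraries in replicate 3, and their median log2 ratio was -0.02. The 24 photosynthesis genes summed to 37363, 30494 and 44330 FPKM in OE2, 45303, 36150 and 54215 FPKM in OE1, 41123 FPKM in replicate 3, and 44215 and 50902 FPKM in replicates 1 and 2, with none at 0. Replicate 3 of tt19-8 was thus highest in the sum of 10 root markers through PRP3, and OE1 replicate 2 was lowest in photosynthesis genes among OE1 and tt19-8. The part of tissue make-up in the split was not tested, and in whole seedlings fewer cells of a type and less RNA per cell cannot be told apart.

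Several higher genes of the lipid-transfer and gibberellin-regulated protein families share the proline-rich coding sequence. AT2G10940, a lipid-transfer family protein with 25% CCN codons, measured 6745, 6432 and 4395 FPKM in OE2, 11116, 10592 and 7233 FPKM in OE1, 9609 FPKM in tt19-8 replicate 3, and 3843 and 2699 FPKM in replicates 1 and 2. It lay just inside the rule, with replicate 3 at 2.5004 times the nearer of replicates 1 and 2, and the OE1 mean was close to replicate 3 (position 0.99). AT5G14920, a gibberellin-regulated family protein with 29.3% CCN codons, measured 1114, 1365 and 830 FPKM in OE2, 1227, 1504 and 914 FPKM in OE1, 1749 FPKM in replicate 3, and 670 and 487 FPKM in replicates 1 and 2. The other genes nearest to the rule inside it were AT2G39530 and AT3G17640, at 2.504-fold and 2.53-fold by the nearer library, and outside it TED7, at 2.49-fold, and AT3G56590, at 2.49-fold.

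Ribosomal protein genes gave 6 of the higher genes and 1 of the lower ones, of 285 at this level: 2.11%, beside 0.661% of all genes, and 0.351%, beside 0.406% of all genes. The lower share is near that of all genes. The median log2 ratio of replicate 3 to replicates 1 and 2 over the 285 was 0.06, beside -0.18 for all genes. The 285 ran both ways: replicate 3 was above both other libraries in 131 and below both in 96. AT3G06700 (chromosome 3, 2117127 to 2118074, reverse strand), a ribosomal L29e family protein, measured 1351, 649 and 1138 FPKM in OE2, 1854, 878 and 1557 FPKM in OE1, 1223 FPKM in tt19-8 replicate 3, and 370 and 330 FPKM in replicates 1 and 2. RPL12-A, which encodes a protein of the chloroplast ribosome, measured 897, 775 and 887 FPKM in OE2, 999, 858 and 990 FPKM in OE1, 846 FPKM in replicate 3, and 217 and 146 FPKM in replicates 1 and 2. PGY2, a ribosomal L6 family gene, had the highest OE1 position of the higher genes (1.44), with 215, 86.2 and 231 FPKM in OE2, 293, 110 and 313 FPKM in OE1, 126 FPKM in replicate 3, and 48.1 and 29.0 FPKM in replicates 1 and 2. In all 6 genes OE1 was nearer to replicate 3, with a median position of 1.08.

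The cell wall and the ribosomal protein genes ran in opposite ways over the OE1 libraries. OE1 replicate 2 was the lowest OE1 library in 5 of the 6 ribosomal protein genes, and in 267 of the 285 (93.7%), beside 48.9% of all genes at this level. It was the highest OE1 library in 79 of the 135 cell wall genes (58.5%), beside 27.3% of all genes. The order of the OE1 libraries thus set the 2 kinds apart, while tt19-8 replicate 3 was high in the chosen genes of both.

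Outside these families the largest ratio was that of AT1G69140, annotated as a transcribed pseudogene (3.00 on the log2 scale), with 51.1, 48.2 and 61.4 FPKM in OE2, 62.2, 59.0 and 75.03 FPKM in OE1, 98.7 FPKM in tt19-8 replicate 3, and 16.6 and 9.22 FPKM in replicates 1 and 2. AT4G15150, a glycine-rich protein gene on chromosome 4, measured 380, 538 and 218 FPKM in OE2, 431, 610 and 248 FPKM in OE1, 522 FPKM in replicate 3, and 73.8 and 58.3 FPKM in replicates 1 and 2. Its neighbour AT4G15160, a proline-rich lipid-transfer family gene, was also among the higher genes, and the pair spans 8641499 to 8647252 on chromosome 4. TPS-CIN, a terpene synthase that makes 1,8-cineole, measured 61.4, 44.8 and 49.96 FPKM in OE2, 69.6, 50.8 and 56.6 FPKM in OE1, 67.1 FPKM in replicate 3, and 13.0 and 9.67 FPKM in replicates 1 and 2. It shares 1436 nt at 100% identity with AT3G25830, so its reads may be split between the copies.

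The remaining genes with the largest ratios were AT5G44570, AT1G65510, AT1G65845, AT3G52520 and AT5G57060 (2.41, 2.26, 2.25, 2.15 and 2.17 on the log2 scale). All but AT5G57060 have uncharacterized products. AT5G57060, named after ribosomal protein L18a, was counted above among the ribosomal protein genes by its product name. AT1G17410, a nucleoside diphosphate kinase family gene, was the one higher gene in which OE1 was beyond replicates 1 and 2 (position -0.02): it measured 8.51, 9.01 and 7.38 FPKM in OE2, 8.79, 9.31 and 7.59 FPKM in OE1, 27.0 FPKM in tt19-8 replicate 3, and 7.80 and 9.66 FPKM in replicates 1 and 2. In this gene replicate 3 stood apart from all 8 other libraries. AT5G44570 and AT3G03350 had the next lowest positions outside the cell wall family, 0.45 and 0.39. In 15 of the 65 higher genes the OE1 mean was beyond replicate 3.

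The higher genes were short. The median transcript had 977 nt for the 63 higher genes with an annotated coding sequence, 1712 nt for the 33 such lower genes and 1820 nt for all 9777 at this level, and the median number of exons was 2, 4 and 6. Of the 63 higher genes, 32 lay in the shortest decile of transcripts (123 to 989 nt) and 33 in the decile with the most CCN codons (7.85% or more), 18 of these being cell wall genes. The median share of CCN codons was 8.02% for the higher genes, 4.56% for the lower ones and 4.96% for all.

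Length went with the split over all genes as well. The median log2 ratio of replicate 3 to replicates 1 and 2 was 0.14 in the shortest decile and -0.40 in the longest, with Spearman's rho of -0.265 across 9777 genes. For the OE1 mean over the same replicates, on log2(FPKM + 1), the medians were 0.22 and -0.47. The trend with length was thus not particular to replicate 3. For CCN codons rho was 0.002, with the median near 0 at both ends (-0.05 and -0.01) and lowest in the middle (-0.26). Genes within a library are not independent replicates, FPKM divides by a length that is not given in the sources used here, and the part of transcript length in the split was not tested.

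**Figure D3:**
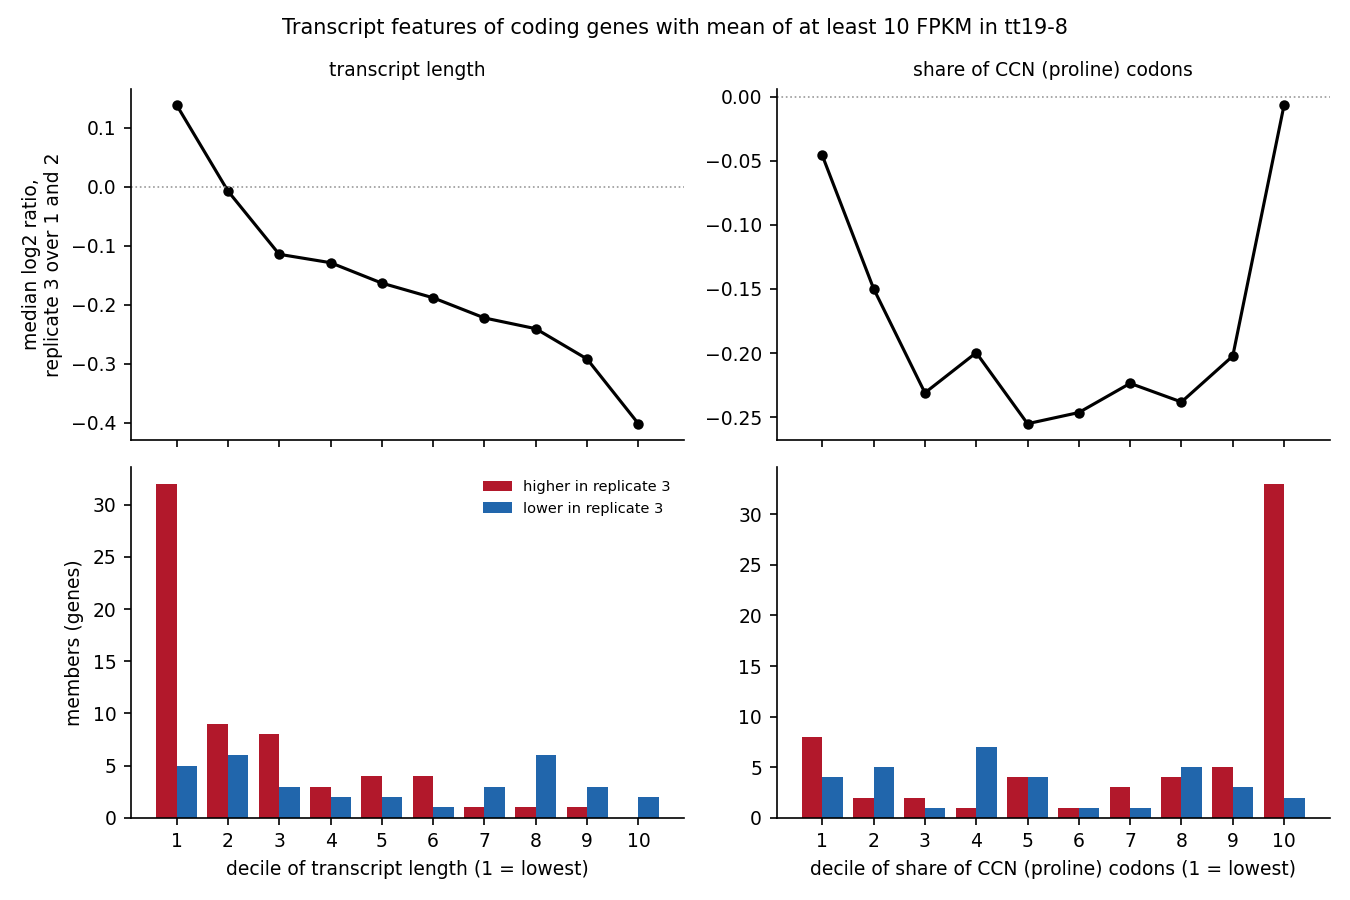
Top, median log2 ratio of tt19-8 replicate 3 to replicates 1 and 2 by decile of transcript length (left) and of the share of CCN codons (right), over 9777 coding genes with a mean of at least 10 FPKM in tt19-8; bottom, number of higher and lower genes in each decile. The ratio falls steadily with length, and the shortest decile and the decile richest in CCN codons hold 32 and 33 of the 63 higher genes.

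The lower genes formed a small part of each library and were of mixed kinds. Together the 40 genes held 0.458%, 0.655% and 0.559% of all FPKM in OE2, 0.426%, 0.625% and 0.530% in OE1, 0.292% in tt19-8 replicate 3, and 1.26% and 0.855% in replicates 1 and 2. Their median fold between replicates 1 and 2 and replicate 3 was 3.36, with a range of 2.54 to 21.7. Most of their FPKM came from 4 nuclear ribosomal RNA genes, whose sum was 2711, 3920 and 3805 FPKM in OE2, 3101, 4536 and 4375 FPKM in OE1, 1926 FPKM in replicate 3, and 9197 and 6031 FPKM in replicates 1 and 2. Without these 4 and the 3 organelle identifiers, 24 of 33 lower genes had OE1 nearer to replicate 3 (72.7%), with a median position of 0.69.

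AT3G41768 (chromosome 3, 14197677 to 14199484, forward strand), an 18S ribosomal RNA gene, measured 2474, 3523 and 3672 FPKM in OE2, 2845, 4062 and 4231 FPKM in OE1, 1825 FPKM in tt19-8 replicate 3, and 8246 and 5312 FPKM in replicates 1 and 2. The OE libraries lay between replicate 3 and the other tt19-8 libraries without overlap. AT2G01010, the other 18S copy, had the largest ratio of all 105 genes (-4.44 on the log2 scale), with 107, 161 and 34.7 FPKM in OE2, 148, 222 and 46.5 FPKM in OE1, 10.3 FPKM in replicate 3, and 190 and 263 FPKM in replicates 1 and 2. The copies differ at 2 of 1808 bases, so the division of reads between them is uncertain, and OE1 overlapped replicates 1 and 2 in AT2G01010.

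The 5.8S copy AT3G41979 is printed because its sequence is shared in full by AT2G01020, a gene annotated as 5S that also follows the rule (0 mismatches over 164 nt), so that their values cannot be told apart as separate genes. The sequence is from the RefSeq genome TAIR10.1, forward strand, chr3:14199753-14199916, with no base in capitals.
AT3G41979: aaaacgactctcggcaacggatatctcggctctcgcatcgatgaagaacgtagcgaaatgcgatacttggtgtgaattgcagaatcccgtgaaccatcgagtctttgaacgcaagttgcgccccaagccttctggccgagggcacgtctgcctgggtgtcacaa
AT3G41979 measured 73.3, 176 and 56.5 FPKM in OE2, 66.7, 194 and 56.1 FPKM in OE1, 66.6 FPKM in tt19-8 replicate 3, and 611 and 361 FPKM in replicates 1 and 2. AT2G01020 measured 57.1, 59.9 and 41.2 FPKM in OE2, 41.3, 58.3 and 40.6 FPKM in OE1, 24.1 FPKM in replicate 3, and 150 and 94.1 FPKM in replicates 1 and 2. In both, every OE library was below replicates 1 and 2. AT2G01010 and AT2G01020 are neighbours, at 3706 to 5945 on chromosome 2. The 3 organelle identifiers ATMG00020, ATMG00665 and ATCG00350 are not in the annotation used and are named only. ATMG00020 measured 176, 287 and 243 FPKM in OE2, 187, 305 and 259 FPKM in OE1, 131 FPKM in replicate 3, and 590 and 350 FPKM in replicates 1 and 2.

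Seed and abscisic acid genes departed most from the pattern of the other lower genes. OE1 was nearer to tt19-8 replicate 3 in 1 of the 4, and OE1 replicate 2 was the highest OE1 library in all 4. The 250 bases before the annotated start are shown for 3 of the 4, RAB18, LTI65 and LEA7, and not for CRU3. The core of abscisic acid elements, ACGTG, searched on both strands, is in capitals (CACGT where it lies on the other strand). The sequences are from the RefSeq genome TAIR10.1, in the direction of each gene: chr5:26519448-26519697 for RAB18, reverse strand, chr5:21236771-21237020 for LTI65, forward strand, and chr1:19619474-19619723 for LEA7, forward strand.
RAB18: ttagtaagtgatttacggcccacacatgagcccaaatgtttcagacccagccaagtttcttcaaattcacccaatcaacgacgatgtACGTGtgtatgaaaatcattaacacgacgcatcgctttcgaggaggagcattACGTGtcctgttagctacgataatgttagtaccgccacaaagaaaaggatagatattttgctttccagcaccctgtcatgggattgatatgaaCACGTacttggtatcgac
LTI65: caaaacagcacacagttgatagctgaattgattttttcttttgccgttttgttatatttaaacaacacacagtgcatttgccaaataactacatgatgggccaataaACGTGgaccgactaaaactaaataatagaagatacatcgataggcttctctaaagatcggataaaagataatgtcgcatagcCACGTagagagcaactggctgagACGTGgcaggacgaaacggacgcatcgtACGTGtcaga
LEA7: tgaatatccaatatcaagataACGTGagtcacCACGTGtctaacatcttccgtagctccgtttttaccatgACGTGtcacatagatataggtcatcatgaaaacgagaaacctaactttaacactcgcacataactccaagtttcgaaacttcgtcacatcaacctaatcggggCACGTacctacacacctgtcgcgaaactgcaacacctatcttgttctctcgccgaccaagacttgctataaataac
The windows hold 3, 4 and 5 matches, and in LEA7 a match on each strand overlaps in CACGTG. Over windows of 250 bases before to 50 after the start, ACGTG was in 19 of 33 lower genes (57.6%), 20 of 65 higher genes (30.8%) and 27.4% of all 9776 at this level. It was the widest gap of 13 motifs searched on both strands in the same windows. The G-box CACGTG, which contains ACGTG, was in 24.2% of lower genes, 6.15% of higher genes and 8.92% of all. The heat shock element GAANNTTC was in 21.2%, 9.23% and 10.9%, and the TATA box TATAAA in 54.5%, 67.7% and 51.4%, in the same order. The other 9 motifs differed from all genes by at most 9.95 percentage points in either direction. They were the W-box core TTGAC, the evening element AAAATATCT, the site II element TGGGCC, the phosphate starvation element GNATATNC, the GCC box GCCGCC, the rapid stress element CGCGTT, the I-box core GATAAG, the telo-box AAACCCTA and the AC element ACCTACC. A match is a description of these letters, not a site.

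RAB18 (AT5G66400, chromosome 5, 26518277 to 26519447, reverse strand), a dehydrin raised by abscisic acid, measured 60.1, 90.3 and 46.8 FPKM in OE2, 26.9, 81.2 and 36.9 FPKM in OE1, 7.34 FPKM in tt19-8 replicate 3, and 44.5 and 24.1 FPKM in replicates 1 and 2. Every OE library was above replicate 3, and OE1 overlapped replicates 1 and 2 (position -0.18). LEA7, a late embryogenesis abundant protein, measured 27.3, 40.1 and 32.3 FPKM in OE2, 15.4, 41.1 and 28.2 FPKM in OE1, 5.60 FPKM in replicate 3, and 27.8 and 17.9 FPKM in replicates 1 and 2. LTI65, also called RD29B, a gene of the drought and cold response, measured 9.77, 22.6 and 8.10 FPKM in OE2, 8.22, 24.0 and 7.196 FPKM in OE1, 3.84 FPKM in replicate 3, and 23.3 and 14.7 FPKM in replicates 1 and 2. In all 3 genes tt19-8 replicate 3 was the lowest library of the series. RAB18 and LTI65 were the 2 chosen genes among 12 cold and abscisic acid genes at this level (16.7%, beside 0.406% of all genes). The median log2 ratio of the 12 was -0.47, beside -0.18 for all genes. Replicate 3 was below both other tt19-8 libraries in 7 of them and above both in 2. Lists without a chosen gene had similar medians: -0.48 for photosynthesis, -0.53 for phosphate, -0.54 for nitrogen and -0.45 for flavonoids. The low median was thus not particular to this list.

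CRU3, which encodes the seed storage protein cruciferin, had the opposite place: OE1 was beyond replicate 3 (position 1.99). It measured 1.73, 16.04 and 2.07 FPKM in OE2, 0.982, 15.4 and 0.871 FPKM in OE1, 13.9 FPKM in tt19-8 replicate 3, and 40.1 and 172 FPKM in replicates 1 and 2. The 10 seed storage genes, CRU3 among them, summed to 31.3, 88.1 and 30.1 FPKM in OE2, 16.6, 75.1 and 3.26 FPKM in OE1, 122 FPKM in replicate 3, and 101 and 622 FPKM in replicates 1 and 2, with 0, 0 and 1 genes at 0 in OE2, 6, 3 and 6 in OE1, 4 in replicate 3, and 2 and 0 in replicates 1 and 2. Without CRU3 the other 9 summed to 29.6, 72.0 and 27.99 FPKM in OE2, 15.65, 59.7 and 2.38 FPKM in OE1, 108 FPKM in replicate 3, and 60.8 and 449.9 FPKM in replicates 1 and 2, with 4 of the 9 at 0 in replicate 3, against 2 and 0 in replicates 1 and 2. Both sums in replicate 3 were thus above those in replicate 1, unlike CRU3, and the part of leftover seed tissue in these values was not tested.

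**Figure D4:**
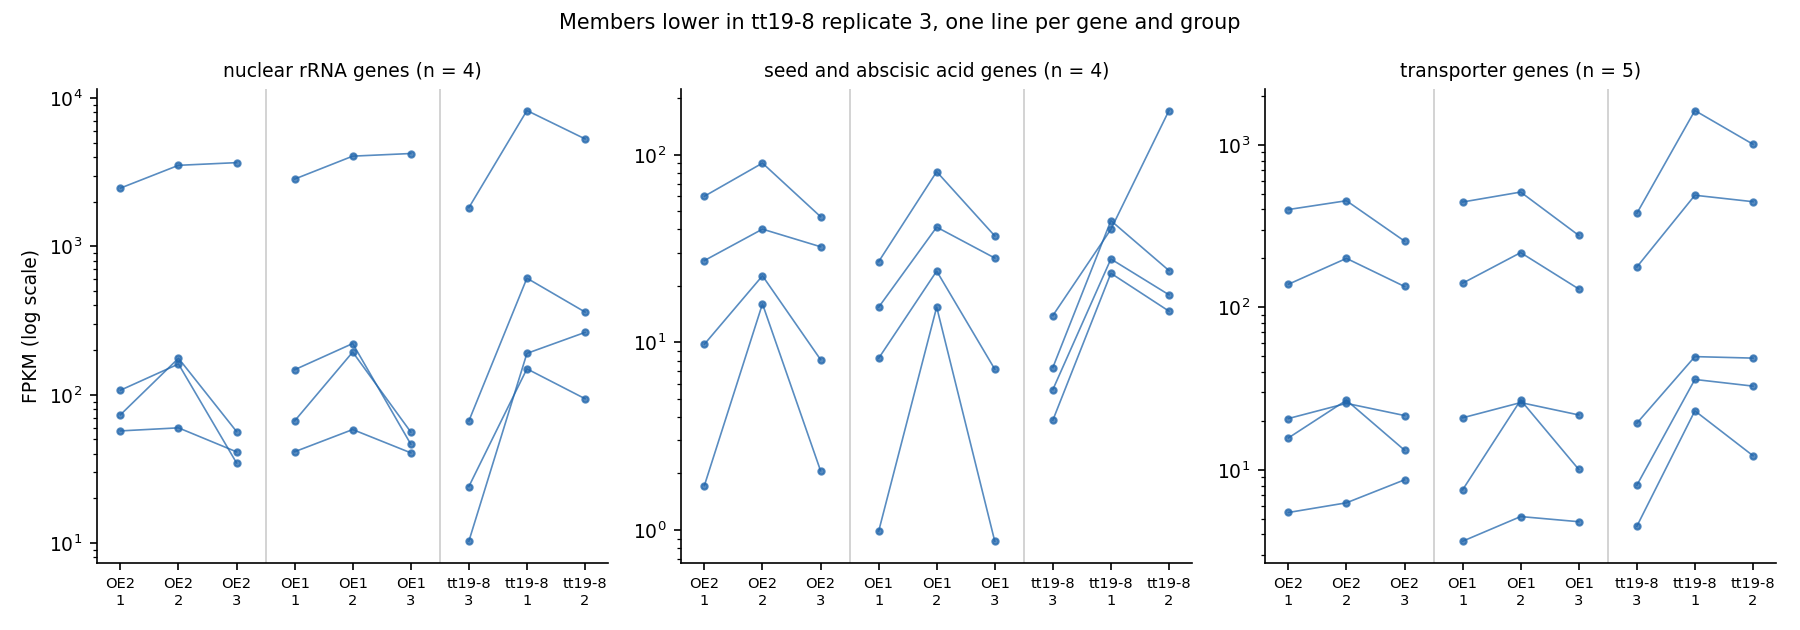
FPKM on a log axis in every library, with a line for each gene within each group, for the nuclear ribosomal RNA, seed and abscisic acid, and transporter genes that were lower in tt19-8 replicate 3. In OE1 the transporter genes lie near replicate 3, with SAG29 higher in OE1 replicate 2, while 3 of the 4 seed and abscisic acid genes reach the level of replicates 1 and 2 in OE1 replicate 2.

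Among the kinds of lower genes, OE1 was closest to replicate 3 in the transporter genes. OE1 was nearer to replicate 3 in 5 of 5, with positions of 0.69 to 1.11. BOR5 (AT1G74810, chromosome 1, 28107822 to 28111940, forward strand), of the borate exporter family, measured 400, 453 and 256 FPKM in OE2, 445, 512 and 277 FPKM in OE1, 378 FPKM in tt19-8 replicate 3, and 1626 and 1009 FPKM in replicates 1 and 2. NRT1.7, which loads nitrate into the phloem of old leaves, measured 139, 200 and 134 FPKM in OE2, 141, 217 and 130 FPKM in OE1, 177 FPKM in replicate 3, and 489 and 447 FPKM in replicates 1 and 2. In both genes the OE1 libraries spread around replicate 3 and did not overlap replicates 1 and 2.

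SAG29, a sugar transporter of senescing leaves also called SWEET15, measured 15.7002, 26.8 and 13.2 FPKM in OE2, 7.52, 26.9 and 10.1 FPKM in OE1, 8.02 FPKM in tt19-8 replicate 3, and 36.0 and 32.7 FPKM in replicates 1 and 2. PHT1;5, which moves phosphate between source and sink organs, measured 5.46, 6.26 and 8.67 FPKM in OE2, 3.63, 5.15 and 4.79 FPKM in OE1, 4.48 FPKM in replicate 3, and 23.1 and 12.2 FPKM in replicates 1 and 2. PUP1, a purine and cytokinin permease, was the lower gene nearest to the rule, at 2.52-fold by the nearer library. The next inside were AT5G47550, a cystatin family gene, at 2.52-fold, and NRT1.7, at 2.53-fold, and those just outside were EBF2, an F-box gene of ethylene signalling, at 2.48-fold, ATMG00060, at 2.47-fold, and AT4G09500, at 2.46-fold.

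Of the other 24 lower genes, 18 had OE1 nearer to replicate 3, with a median position of 0.67. FDH, the formate dehydrogenase of mitochondria, measured 95.9, 114 and 94.6 FPKM in OE2, 105, 137 and 104 FPKM in OE1, 75.2 FPKM in tt19-8 replicate 3, and 213 and 190 FPKM in replicates 1 and 2. CYP76C2, a cytochrome P450 induced in senescing leaves, measured 3.11, 11.1 and 5.49 FPKM in OE2, 2.33, 11.99 and 4.44 FPKM in OE1, 3.91 FPKM in replicate 3, and 19.2 and 15.0 FPKM in replicates 1 and 2. GPX7, a glutathione peroxidase of the chloroplast, measured 12.3, 11.2 and 4.39 FPKM in OE2, 11.7, 10.5 and 3.04 FPKM in OE1, 7.53 FPKM in replicate 3, and 23.1 and 32.1 FPKM in replicates 1 and 2. In these 3 genes every OE library was below replicates 1 and 2, and in CYP76C2 and GPX7 the OE1 libraries lay on both sides of replicate 3.

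AT2G04390, the ribosomal S17 family gene that ran against the 6 higher ones, measured 81.0, 77.8 and 91.3 FPKM in OE2, 81.7, 74.2 and 94.1 FPKM in OE1, 58.6 FPKM in tt19-8 replicate 3, and 153 and 161 FPKM in replicates 1 and 2. AT1G68250, of unknown product, had a lower OE1 position than any lower gene but RAB18 and LEA7 (0.09), with 34.7, 35.8 and 12.3 FPKM in OE2, 36.3, 33.5 and 3.54 FPKM in OE1, 2.74 FPKM in replicate 3, and 26.8 and 14.3 FPKM in replicates 1 and 2. In AT1G68250, OE1 replicate 3 sat by tt19-8 replicate 3 while the other OE1 libraries were above both replicates 1 and 2. AT1G45248, a histone methyltransferase-related gene, was at replicate 3 on average (position 0.99), yet its OE1 libraries ran from 3.90 to 13.9 FPKM around 7.99 FPKM in replicate 3. FLC, the floral repressor, measured 10.2, 9.12 and 11.1 FPKM in OE2, 10.3, 9.17 and 11.2 FPKM in OE1, 4.597 FPKM in replicate 3, and 15.8 and 12.6 FPKM in replicates 1 and 2; an antisense gene covers 100% of it, and with strand use not stated their reads cannot be told apart.

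**Figure D5:**
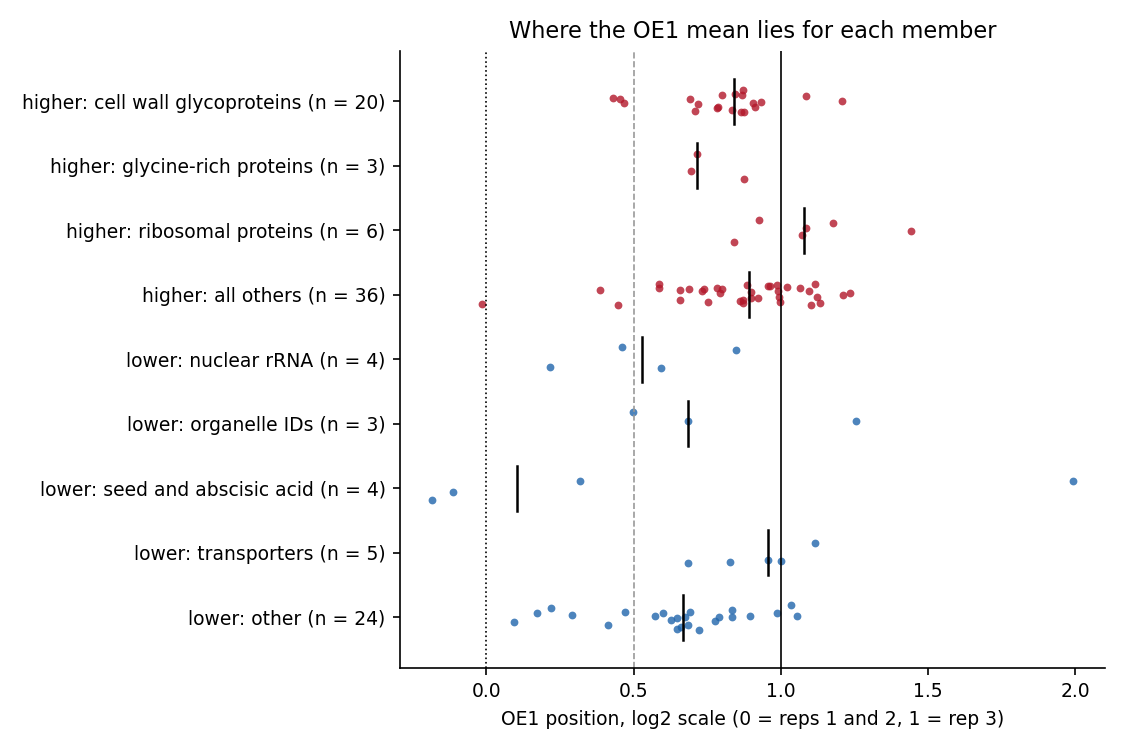
OE1 position of each of the 105 genes on the log2 scale, where 0 is the mean of tt19-8 replicates 1 and 2 and 1 is replicate 3; bars are medians and the dashed line marks the midpoint. Ribosomal protein genes (median 1.08) and transporters (0.96) lie at replicate 3, cell wall genes (0.84) just short of it, and seed and abscisic acid genes (0.10) near replicates 1 and 2 except for CRU3 at 1.99.

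In the test of OE1 against tt19-8 over all 9 libraries, none of the 105 genes passed (limma, lowest adjusted p 0.178 for the lower and 0.175 for the higher genes). By the same adjusted threshold 3 of all 18232 genes tested were called (0.0165%). At an unadjusted p under 0.05 (limma) there were 7 lower and 29 higher genes. That is a looser threshold, so the share of 0.0165% is not a background for these counts. For all genes the unadjusted count is given further below, for other settings only. Nothing is read from the 7 and 29, since the rule used the tt19-8 libraries. PGY2 averaged 239 ± 112 FPKM in the OE1 libraries and 67.9 ± 51.6 FPKM in those of tt19-8 (SD, n = 3 each), and limma gave a log2 change of 1.92 ± 0.57 (standard error, adjusted p = 0.180). EXT4 averaged 13078 ± 4180 FPKM in the OE1 libraries and 9540 ± 7717 FPKM in those of tt19-8, with a log2 change of 0.70 ± 0.47 (limma, adjusted p = 0.418). RAB18 averaged 48.4 ± 28.9 FPKM in the OE1 libraries and 25.3 ± 18.6 FPKM in those of tt19-8, with a log2 change of 1.06 ± 0.57 (limma, adjusted p = 0.322). Without tt19-8 replicate 3, limma called 19 of the 40 lower genes and 53 of the 65 higher ones, and 3136 of all genes (17.2%). The lower ones were all below tt19-8 in OE1, as were 12.9% of all genes by the same call, and the higher ones all above, as were 4.28% of all genes. Nothing is read from these counts of chosen genes, since the rule used the libraries that remain.

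In OE2 against OE1, groups the rule did not use, none of the 40 lower and none of the 65 higher genes passed over all 9 libraries (limma, lowest adjusted p 0.765 and 0.508, none at an unadjusted p under 0.05), while 260 of 18232 genes were called (1.43%). The median log2 change was -0.05 for the lower and -0.27 for the higher genes, beside -0.07 for all genes. RAB18 measured 65.7 ± 22.3 FPKM in OE2 and 48.4 ± 28.9 FPKM in OE1, the largest positive change of the lower genes (0.54 ± 0.57, limma adjusted p = 0.930). AT2G10940 measured 5857 ± 1276 FPKM in OE2 and 9647 ± 2107 FPKM in OE1, the largest negative change of the higher genes (-0.72 ± 0.41, limma adjusted p = 0.589). With the replicate number as a block and only OE2 and OE1 in the fit, limma called 22 of the 40 lower genes (2 higher and 20 lower in OE2) and 55 of the 65 higher genes (all lower in OE2), beside 66.5% of all genes (54.6% lower and 11.9% higher in OE2). Without tt19-8 replicate 3 in the fit over all libraries, 1 of the 105 genes passed, the arabinogalactan protein gene AT4G16980, which measured 862, 882 and 740 FPKM in OE2 and 1384, 1403 and 1174 FPKM in OE1 (log2 change -0.67, limma adjusted p = 0.0414), beside 2.54% of all genes (1.77% higher and 0.773% lower in OE2). Of the gene body of AT4G16980, 70.9% overlaps a gene on the other strand, and with strand use not stated their reads cannot be told apart.

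The values of OE2 and OE1 were linked by number. Over 21905 to 22196 genes no OE2 value lay below 0.600 times that of the same-numbered OE1 library, and among the 105 genes this ratio was 0.607 to 3.47. The OE2 values beside each gene above are therefore not a second set of measurements that stands apart from OE1, and p-values of OE2 against OE1 cannot be read as those of separate libraries.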

How the data were processed

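RNA sequencing of 9 libraries gave 1 deposited table each, with the authors' FPKM for 33602 genes. HISAT 0.1.6, edgeR and the build TAIR10 are named in the submitters' processing notes, without the role of each. The lengths and totals that went into the FPKM, and the use of strand, are not given in the sources used here. Symbols, positions and sequences come from RefSeq TAIR10.1, which matched 32835 identifiers. Depth was estimated from the spacing of low FPKM values: 70.0% to 72.5% of them were whole fragments within 0.1 in OE1 and tt19-8, and the FPKM were not turned into counts.

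The 105 genes and the 18 lists were chosen with earlier results of these data known, and the families by product name, the kinds of lower genes and the sequence features were chosen after the values were seen, so none of them is tested as a set. Genes named are, in each direction, the 12 with the largest ratio, the 8 with the highest mean in tt19-8, the 3 nearest to the rule inside and outside it, the 4 whose OE1 mean was farthest from and the 4 nearest to replicate 3, and up to 4 a list; others, such as FLC and PGY2, were named after their values were seen. Groups were compared with limma 3.58.1 (R 4.3.3) on log2(FPKM + 1), with eBayes trend and robust, for 18232 genes (1 FPKM or more in 3 or more libraries), in 1 fit over all 9 libraries, with Benjamini-Hochberg adjusted p under 0.05 as the threshold. A fold change on this scale understates changes of low genes. The test was run on simulated data with 200 changed genes. For OE1 against tt19-8 it recovered 51.4% of log2 changes of 1 and 92.3% of those of 2, with 5 false calls among 145. For OE2 against OE1 it recovered 48.4% and 90.7%, with 3 false calls among 145. The simulated noise was drawn separately for each library, so it held neither the link of OE2 with OE1 nor a library set apart. It is no check of the test under those conditions. No scaling beyond that of the deposited values was applied.

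Whether replicate numbers pair the libraries was checked by the correlation, over genes, of deviations from the group means: it was 0.975 to 0.977 for same-numbered OE2 and OE1 libraries, which thus pair in the data though no label says so, and -0.06 to 0.02 for OE1 and tt19-8, which do not. Alternatives were other folds and minimums of the rule, median-ratio scaling, other pseudocounts and filters, the replicate block, and each library left out. Tables and plots were made with Python 3.11.15, pandas 2.3.3, scipy 1.17.1 and matplotlib 3.10.9, and near copies were found with blastn 2.17.0 at 95% identity.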

Additional observations from a re-analysis of the deposited data

How the results depend on the processing

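The number of genes set apart followed the settings of the rule, and the cause was not tested beyond that. A 2-fold and a 4-fold rule gave 143 and 5 lower genes and 165 and 9 higher genes, in place of 40 and 65. A minimum mean of 5 FPKM gave 61 lower genes (87 higher), one of 50 FPKM gave 13 and 26, and no minimum with 1 FPKM added gave 62 and 113. Median-ratio scaling, which raises the divisor of tt19-8 replicate 2 to 1.19 against 1.03 for replicate 3 and 1.04 for replicate 1, left 22 of the lower genes and gave 78 higher ones. Without tt19-8 replicate 1 or 2 the counts ran from 87 to 91 lower and from 110 to 142 higher. OE1 was nearer to replicate 3 in 56.5% of lower genes with no minimum (35 of 62), 59.1% with median-ratio scaling (13 of 22), 3 of 5 with the 4-fold rule and 82.5% with the 2-fold rule, the other alternatives lying between 70.0% and 80.0%, OE1 libraries left out included. For higher genes it was 76.1% with no minimum and 87.7% to 94.9% otherwise (92.3% to 93.8% with a library left out). Of 232 recomputed ratios for 58 named genes none changed sign, and 14 moved by at least the SD of tt19-8 replicates 1 and 2. These genes were chosen for a split of 2.5-fold or lay next to it. A kept sign was thus all but fixed in advance, and nothing is read from it.

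In OE1 against tt19-8 limma called 3 genes, and 0 with a pseudocount of 0.1 FPKM or with only both groups in the fit, where 3424 and 2550 had an unadjusted p under 0.05. With a library left out it called 0 to 3136, and of the lower and higher genes 0 to 19 and 0 to 53, each highest without tt19-8 replicate 3. The replicate block, though numbers do not pair these groups, gave 16 genes, 1 of them a lower gene (CRU3), and with only both groups 5 genes, CRU3 and 1 higher gene (PGY2) among them. In OE2 against OE1 the 260 calls became 146 with a pseudocount of 0.1 FPKM, 535 with no filter, 398 with median-ratio scaling and 104 to 464 with a library left out, where 0 to 1 higher genes passed (AT4G16980, without tt19-8 replicate 3) and no lower gene. The replicate block with only OE2 and OE1 gave 12118 calls, with 22 lower and 55 higher genes. It changed no other call of the chosen genes. The depth of OE2 is unknown, and counts behind short genes at 10 FPKM fall with length.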
